A study of Mus musculus with 18 samples.

Results

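The set described here is 10 genes of the route by which the Hippo-pathway kinase MST1 acts on T cell adhesion and migration: the RASSF adaptors Rassf1, Rassf2, Rassf3 and Rassf5, the small GTPases Rap1a and Rap1b, the RAP1 activator Rapgef1, the exchange factors Dock2 and Dock8, and the coronin Coro1a. Members were taken by name, using for each gene the brightest probe set that lists it as the only symbol. By this rule 8 of the 10 members were measured, among 13034 genes tested. The probe sets of Rassf1 and Rap1a each list another symbol as well, so these members were not assigned a value here.

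Expression was measured on 18 MoGene-2_0 microarrays with RNA of invariant natural killer T (iNKT) cells sorted from the thymus of C57BL/6 mice. iNKT cells are T cells whose nearly uniform receptor recognises lipids presented by CD1d. The groups were Mst1KO (Cd4Cre Mst1fl/fl, in which Cre driven by Cd4 deletes the gene for MST1, Stk4) and WT, each sorted at 3 stages with 3 arrays a group. Cells of all groups were TCRb+, bound the PBS57-loaded CD1d tetramer and lacked CD24: S1 was negative for CD44 and NK1.1, S2 positive for CD44 only, and S3 positive for both. The labels give no age or sex and do not say whether WT mice carried Cre or the floxed allele. The deletion is limited to cells that have switched on Cd4. The series states 3 mice of each genotype, but the labels do not tie a replicate number to a mouse, so the p-values speak only to the variation among these arrays, part of which may be technical.

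The RASSF proteins of this set carry a SARAH domain, by which they can bind the matching domain of MST1. RASSF5, also known as RAPL, binds active RAP1 and brings MST1 to the leading edge of a migrating lymphocyte, where the integrin LFA-1 is clustered. MST1 also phosphorylates MOB1, which promotes activation of DOCK8, an exchange factor for CDC42, while DOCK2 activates RAC and coronin 1A acts on the ARP2/3 actin network.

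Values are log2 expression, so 1 unit is a doubling in signal. A difference between groups is a log2 difference with its SE (n = 3 arrays a group), a level is a mean with its SD (n = 3), and a gene is called changed at an adjusted p under 0.05 in limma (moderated t, Benjamini-Hochberg over all genes tested). "Rose" and "fell" are used of called genes only. The 95% intervals printed are not adjusted for the number of genes. The array median lay between 4.81 and 4.93 and the 75th percentile between 6.72 and 6.88. Each of the 8 members exceeded its array's median on 18 of 18 arrays, and all but Rassf3 exceeded the 75th percentile on 18 of 18. Rassf3 did so on 9 of 18 and was the dimmest of these members. Stk4 itself had 7.56, 7.60 and 7.67 in Mst1KO S1, against 8.10, 7.90 and 7.70 in WT S1. Over S1, S2 and S3 the differences were -0.29 ± 0.11, -0.35 ± 0.11 and -0.39 ± 0.11 (adjusted p = 0.34, 0.173 and 0.0767), without overlap at any stage. The sources used here do not give the deleted exons or those this probe set reads, so Stk4 is a limited check of the labels.

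Rap1b, Dock2 and Rapgef1 are the members called between stages for which a promoter was listed, and the 250 bases before their starts are shown for that reason. Of the 10 members, 8 matched RefSeq's promoter table for GRCm38.p6 (10 promoters). Capitals mark matches on either strand to GGAAGT (the core bound by ETS factors), TGTGGT (RUNX) or CCGCCC (GC box). These hexamers do not overlap one another in the 3 promoters shown. The sequences run 5′ to 3′ on the gene's strand: Dock2 from the minus strand at chr11:34783906-34784155, Rap1b from the minus strand at chr10:117845975-117846224 and Rapgef1 from the plus strand at chr2:29619470-29619719.
Dock2: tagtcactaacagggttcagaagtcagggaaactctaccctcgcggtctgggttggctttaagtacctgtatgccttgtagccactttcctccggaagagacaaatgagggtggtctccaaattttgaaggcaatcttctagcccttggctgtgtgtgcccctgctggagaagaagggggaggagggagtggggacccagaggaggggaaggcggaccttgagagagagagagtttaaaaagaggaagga
Rap1b: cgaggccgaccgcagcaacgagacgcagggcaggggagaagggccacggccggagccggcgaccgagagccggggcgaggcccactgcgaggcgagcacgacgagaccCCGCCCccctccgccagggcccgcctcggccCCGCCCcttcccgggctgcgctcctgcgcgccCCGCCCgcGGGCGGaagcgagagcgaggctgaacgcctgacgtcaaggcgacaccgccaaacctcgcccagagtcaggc
Rapgef1: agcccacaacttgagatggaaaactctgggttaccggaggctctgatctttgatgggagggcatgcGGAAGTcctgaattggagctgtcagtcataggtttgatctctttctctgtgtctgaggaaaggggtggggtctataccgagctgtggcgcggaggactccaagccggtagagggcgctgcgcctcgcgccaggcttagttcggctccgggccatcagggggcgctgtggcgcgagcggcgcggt

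These promoters differed in base content and in matches. Rap1b had 77.2% G and C and 4 GC boxes, beginning 142, 111, 79 and 71 bases before the start. Dock2 had 52.8% G and C and no match to any of the 3 hexamers. Rapgef1 had 60.8% G and C and 1 ETS core, 184 bases before the start. Over the members' 10 promoters, the ETS core was present in 4, the GC box in 6 and the RUNX core in 0, against 19.7%, 32.7% and 14% of all 32851 promoters of that length. The GC box was chosen after seeing the data, so its share is no test. Coro1a and Rassf1 each gave more than 1 of these promoters, and Rassf1 was not measured by the rule. A match describes the letters only.

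S2 minus S1 and S3 minus S2 were tested within each genotype, and S3 was not tested against S1. Rap1b, Dock2 and Rassf3 were called between S3 and S2 in WT, where 23.6% of all genes were. Rap1b and Rassf3 were also called for that step in Mst1KO (17.2% of all genes). Rapgef1 was called between S2 and S1 in Mst1KO (6.67% of all genes), and no member was in WT (3.84%). Rassf5, the partner of MST1, and Dock8, which acts downstream of it, spanned 0.10 and 0.12 between their lowest and highest group mean, at the 0.93 and 1.66 percentile of all genes, for which the median span was 0.41. Coro1a spanned 0.31, Rapgef1 0.41, Rassf2 0.52, Rap1b 0.56, Dock2 0.66 and Rassf3 0.79. No member was called between the genotypes at any stage. These are bulk sorts, so fewer cells of a type and less RNA per cell cannot be told apart.

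**Figure D1:**
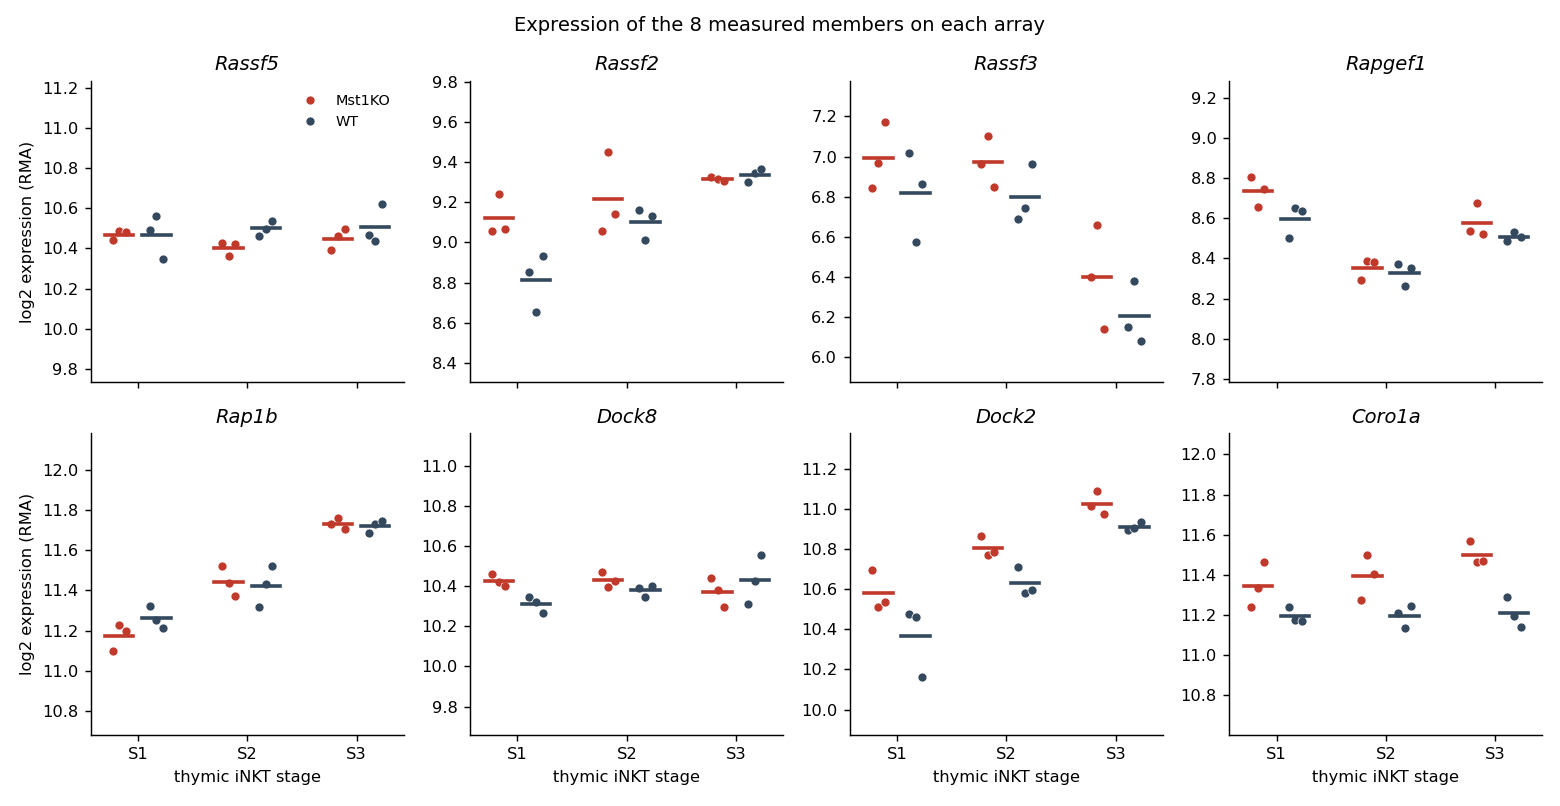
Log2 expression (RMA, y axis) of the 8 measured members on each array by stage, with Mst1KO points left of WT points and a bar at each group mean. Each y axis has its own limits; Rap1b and Dock2 run upward over S1, S2 and S3, Rassf3 drops at S3, and every Mst1KO point of Coro1a and Dock2 lies above the WT points of its stage.

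Among the RASSF adaptors, Rassf5 stayed within 10.35 to 10.62 on all arrays. Its values were 10.44, 10.48 and 10.48 in Mst1KO S1, against 10.49, 10.56 and 10.35 in WT S1. At S2 they were 10.43, 10.36 and 10.42 in Mst1KO, against 10.46, 10.50 and 10.54 in WT, and at S3 10.39, 10.46 and 10.49 in Mst1KO, against 10.47, 10.44 and 10.62 in WT. The groups overlapped at S1 and S3 and stood apart at S2, with Mst1KO lower. The differences were 0.00 ± 0.08, -0.10 ± 0.08 and -0.06 ± 0.08 at S1, S2 and S3 (adjusted p = 0.996, 0.678 and 0.784). The 95% intervals reached no lower than -0.27 and no higher than 0.17, so a change of the array signal beyond those limits lies outside them.

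Rassf2, an adaptor that binds the MST kinases, had 9.06, 9.24 and 9.07 in Mst1KO S1, against 8.85, 8.65 and 8.93 in WT S1. The groups did not overlap, and the difference was 0.31 ± 0.10 (95% interval 0.09 to 0.53, adjusted p = 0.248). At S2 it was 9.22 ± 0.21 in Mst1KO and 9.10 ± 0.08 in WT, and at S3 9.32 ± 0.01 in Mst1KO and 9.34 ± 0.03 in WT. The genotypes thus stood apart at S1 and overlapped at S2 and S3. The S2 minus S1 difference was 0.09 ± 0.10 in Mst1KO and 0.29 ± 0.10 in WT, and the S3 minus S2 difference 0.10 ± 0.10 in Mst1KO and 0.24 ± 0.10 in WT, none of them called. The interaction, which tests that contrast itself, was -0.19 ± 0.15 for S2 minus S1 and -0.14 ± 0.15 for S3 minus S2 (adjusted p = 0.901 and 0.794).

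Rassf3, a less studied RASSF adaptor, was the member with the widest change. It had 6.84, 6.97 and 7.17 in Mst1KO S1, 6.96, 7.10 and 6.85 in Mst1KO S2 and 6.40, 6.66 and 6.14 in Mst1KO S3. The values were 7.02, 6.57 and 6.86 in WT S1, 6.69, 6.75 and 6.96 in WT S2 and 6.15, 6.38 and 6.08 in WT S3. In both genotypes every S3 array lay below every S2 array, while S2 and S1 overlapped. From S2 to S3 it fell by 0.57 on the log2 scale in Mst1KO (SE 0.15, adjusted p = 0.0115) and fell by 0.59 in WT (SE 0.15, adjusted p = 0.0064), a level 1.49 times lower in Mst1KO S3 and 1.51 times lower in WT S3. The call in Mst1KO was lost without S3 replicate 3 or S2 replicate 2, at an adjusted p of up to 0.0641. Between genotypes Rassf3 was higher in Mst1KO by 0.18 ± 0.15, 0.17 ± 0.15 and 0.20 ± 0.15 at S1, S2 and S3, with overlap at each stage (adjusted p = 0.711, 0.68 and 0.557).

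Rap1b, the RAP1 GTPase that in its active form switches on integrins, had its highest levels at S3 in both genotypes. It had 11.10, 11.23 and 11.20 in Mst1KO S1, 11.52, 11.44 and 11.37 in Mst1KO S2 and 11.73, 11.76 and 11.71 in Mst1KO S3. The values were 11.32, 11.25 and 11.21 in WT S1, 11.32, 11.43 and 11.52 in WT S2 and 11.69, 11.73 and 11.75 in WT S3. The 6 arrays of S3 lay above the other 12, and at each stage the genotypes overlapped. From S2 to S3 it rose by 0.29 ± 0.08 in Mst1KO (adjusted p = 0.0172) and by 0.30 ± 0.08 in WT (adjusted p = 0.0106), a level 1.22 times higher in Mst1KO and 1.23 times higher in WT. The call in Mst1KO was lost without S3 replicate 1, S3 replicate 2 or S2 replicate 3, at an adjusted p of up to 0.0723. With only the groups compared in the fit, the call was lost in both genotypes. The S2 minus S1 difference was 0.27 ± 0.08 in Mst1KO (adjusted p = 0.0512), with no overlap, and 0.16 ± 0.08 in WT (adjusted p = 0.323). Mst1KO and WT differed by -0.09 ± 0.08, 0.02 ± 0.08 and 0.01 ± 0.08 at S1, S2 and S3 (adjusted p = 0.737, 0.947 and 0.965). A second, dimmer Rap1b probe set was also higher at S3 than at S2, with 6.98 ± 0.09 at S3 and 6.58 ± 0.11 at S2 in Mst1KO. It disagreed at S2 against S1, since its Mst1KO S1 level of 6.83 ± 0.03 was above that of S2.

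Rapgef1, an exchange factor that loads RAP1 with GTP, was lowest at S2. It had 8.80, 8.66 and 8.75 in Mst1KO S1, 8.29, 8.39 and 8.38 in Mst1KO S2 and 8.53, 8.67 and 8.52 in Mst1KO S3. The values were 8.50, 8.65 and 8.63 in WT S1, 8.37, 8.26 and 8.35 in WT S2 and 8.49, 8.53 and 8.51 in WT S3. In each genotype all S2 arrays lay below all arrays of S1 and of S3. From S1 to S2 it fell by 0.38 in Mst1KO (SE 0.08, adjusted p = 0.00652), a level 1.30 times lower, and the call held without any 1 array. With only the groups compared in the fit, its adjusted p was 0.0606. In WT the same difference was -0.27 ± 0.08 (adjusted p = 0.0794), and the interaction of -0.12 ± 0.11 gives no call that the genotypes differ (adjusted p = 0.917). The S3 minus S2 difference was 0.22 ± 0.08 in Mst1KO and 0.18 ± 0.08 in WT (adjusted p = 0.0638 and 0.121), and in Mst1KO it was called under the 75th percentile filter (adjusted p = 0.031). Between genotypes Rapgef1 differed by 0.14 ± 0.08, 0.02 ± 0.08 and 0.07 ± 0.08 at S1, S2 and S3 (adjusted p = 0.55, 0.941 and 0.73), with no overlap at S1 only.

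Dock8, the CDC42 exchange factor downstream of MST1 and MOB1, had a narrow range of group means. It had 10.46, 10.42 and 10.40 in Mst1KO S1, against 10.34, 10.32 and 10.27 in WT S1, where the groups did not overlap. At S2 the values were 10.47, 10.39 and 10.43 in Mst1KO, against 10.39, 10.35 and 10.40 in WT, and at S3 10.44, 10.38 and 10.29 in Mst1KO, against 10.31, 10.43 and 10.55 in WT, with overlap at both. The differences were 0.11 ± 0.08, 0.05 ± 0.08 and -0.06 ± 0.08 at S1, S2 and S3 (adjusted p = 0.64, 0.846 and 0.784), and their 95% intervals ran from -0.22 to 0.28. S2 minus S1 and S3 minus S2 were at most 0.07 in size in either genotype, and the WT means at S3 and S1 were 10.43 ± 0.12 and 10.31 ± 0.04.

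Dock2, the RAC exchange factor that drives lymphocyte migration, had group means ordered by stage and, within a stage, by genotype. It had 10.69, 10.51 and 10.53 in Mst1KO S1, 10.87, 10.77 and 10.79 in Mst1KO S2 and 11.01, 11.09 and 10.97 in Mst1KO S3. The values were 10.48, 10.46 and 10.16 in WT S1, 10.71, 10.58 and 10.60 in WT S2 and 10.89, 10.90 and 10.93 in WT S3. Every Mst1KO array lay above every WT array of its stage, and the group means alternated in the order WT S1, Mst1KO S1, WT S2, Mst1KO S2, WT S3 and Mst1KO S3. Of these neighbours, Mst1KO S1 and WT S2 overlapped. Mst1KO minus WT was 0.21 ± 0.09, 0.18 ± 0.09 and 0.12 ± 0.09 over S1, S2 and S3 (adjusted p = 0.394, 0.426 and 0.591). The S3 minus S2 difference was 0.22 ± 0.09 in Mst1KO (adjusted p = 0.124), called only with the variance trend and robust fit (adjusted p = 0.0428). In WT Dock2 rose by 0.28 ± 0.09 from S2 to S3 (adjusted p = 0.0364), and this call was lost without any 1 of the WT S3 arrays, WT S2 replicate 2 or WT S2 replicate 3 (adjusted p up to 0.106). It was also lost with no filter on dim probe sets and with only the groups compared. The S2 minus S1 differences were 0.23 ± 0.09 in Mst1KO and 0.26 ± 0.09 in WT (adjusted p = 0.171 and 0.146).

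Coro1a, which encodes the actin regulator coronin 1A that T cells need for survival and egress from the thymus, had 3 Mst1KO means above all 3 WT means, with no call between genotypes. It had 11.24, 11.33 and 11.47 in Mst1KO S1, against 11.24, 11.17 and 11.17 in WT S1. At S2 it had 11.28, 11.50 and 11.41 in Mst1KO, against 11.21, 11.14 and 11.24 in WT. At S3 it had 11.57, 11.46 and 11.47 in Mst1KO, against 11.29, 11.19 and 11.14 in WT. The groups did not overlap at any stage, though at S1 the lowest Mst1KO and highest WT array printed alike, and the Mst1KO and WT arrays overlapped at 1 stage after the arrays were quantile-normalized again. Over S1, S2 and S3 the differences were 0.15 ± 0.09, 0.20 ± 0.09 and 0.29 ± 0.09 (adjusted p = 0.543, 0.324 and 0.0735), the last a level 1.22 times higher with a 95% interval of 0.11 to 0.47. With stages averaged first, the difference was 0.21 ± 0.06 (3 values against 3, adjusted p = 0.122). At S3 Coro1a passed the test under a stricter filter at the 75th percentile (adjusted p = 0.0371) and with a variance trend and robust fit (adjusted p = 0.00932), and over its alternatives the adjusted p ran from 0.00932 to 0.229. The S2 minus S1 difference was 0.05 ± 0.09 in Mst1KO and 0.00 ± 0.09 in WT, and the S3 minus S2 difference 0.11 ± 0.09 in Mst1KO and 0.01 ± 0.09 in WT, none of them called.

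The sorted cells carried T cell and iNKT markers. The T cell genes Cd3d, Cd3e and Cd3g lay between 11.51 and 12.19 on all arrays, and the iNKT marker Zbtb16 between 9.86 and 11.81. The B cell list had 1 of 5 genes above the filter on dim probe sets, and Pax5 and Ms4a1 did not pass it. Of the thymocyte list, Cd8a and Rag2 did not pass, while Cd8b1 did, at 6.11 to 8.14 over all arrays. Of the thymic epithelium and stroma list 3 of 7 passed, Krt8, Col1a1 and Pecam1, and Epcam, Foxn1 and Pdgfra did not. That list averaged 5.42 to 5.50, 5.41 to 5.64 and 5.13 to 5.34 at S1, S2 and S3 in Mst1KO, against 5.44 to 5.83, 5.30 to 5.68 and 5.16 to 5.36 in WT. The list of macrophage and dendritic cell markers (9 of 10 above the filter) ran upward over the stages, as Rap1b and Dock2 did, and was higher in Mst1KO at S2 and S3, as Dock2 and Coro1a were. Its mean level per array was 4.89 to 5.10, 5.56 to 5.73 and 5.98 to 6.42 at S1, S2 and S3 in Mst1KO, against 4.86 to 5.14, 5.24 to 5.33 and 5.80 to 5.89 in WT. At S1 the list thus overlapped between genotypes, while Dock2 and Coro1a did not. Coro1a means in WT were 11.19, 11.20 and 11.21 over the stages, and Rap1b overlapped between genotypes at each stage. For S3 minus S2, 5 of the 9 macrophage and dendritic cell markers rose in Mst1KO and 4 in WT, beside 17.2% and 23.6% of all genes called. Between genotypes 1 rose at S2 and 1 at S3, beside 1.17% and 3.4% of all genes called. The NK and innate lymphoid list (4 of 5 above the filter) averaged 4.55 to 4.79, 4.79 to 4.82 and 6.38 to 6.85 in Mst1KO, against 4.40 to 4.64, 4.54 to 4.60 and 6.35 to 6.59 in WT. The gamma-delta T cell list (3 of 4) averaged 6.91 to 7.12, 8.11 to 8.42 and 7.37 to 7.55 in Mst1KO, against 7.06 to 7.60, 7.64 to 8.03 and 5.96 to 6.47 in WT. The list of conventional and immature thymocytes (7 of 10) ran the other way over the stages, at 6.78 to 7.05, 6.21 to 6.46 and 5.73 to 5.88 in Mst1KO, against 6.63 to 6.75, 6.26 to 6.47 and 5.81 to 5.88 in WT. Other lists also held calls between genotypes. Of the gamma-delta list, Cd163l1 rose in Mst1KO at S2 (0.64 ± 0.12) and S3 (1.03 ± 0.12), and Blk at S3 (2.39 ± 0.30). Tyrobp of the NK list rose at S3 (0.88 ± 0.19), and Ccr9 of the thymocyte list fell at S3 (-0.68 ± 0.16). The part of these cell types in the members' differences was not tested.

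Over the members, 0 of 8 were called between Mst1KO and WT at S1, S2, S3 or averaged over stages, where 0.33%, 1.17%, 3.4% and 2.17% of all genes were called. At an unadjusted p under 0.05 there were 2, 1, 1 and 3 of 8 members, beside 1457, 1741, 2176 and 2236 of 13034 genes. For the average the members were Coro1a, Rassf3 (0.18 ± 0.07, adjusted p = 0.241) and Dock2 (0.17 ± 0.06, adjusted p = 0.229). A count of 0 called among 8 is near the shares of all genes called. Arrays of the genotypes did not overlap for 5 of 8 members at S1, 3 at S2 and 2 at S3, against 18.1%, 16.8% and 23% of all genes. Dock2 and Coro1a lay above WT without overlap at all 3 stages, as did 1.07% of all genes. The median difference of the members was 0.15 at S1, 0.08 at S2 and 0.04 at S3, beside 0.01 over all genes at each stage.

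**Figure D2:**
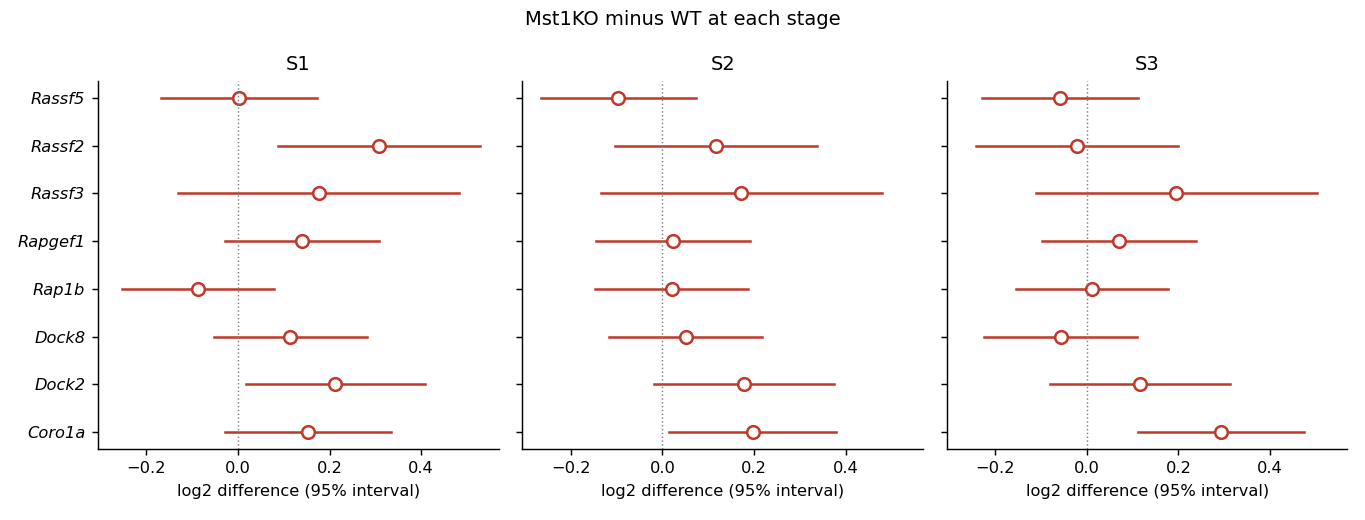
Mst1KO minus WT for each member (log2 difference on the x axis) at S1, S2 and S3, with open points for differences that were not called and bars for the 95% interval. No point is filled; the interval of Coro1a at S3, 0.11 to 0.47, and that of Rassf2 at S1, 0.09 to 0.53, lie furthest above 0.

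Between stages, 1 of 8 members was called for S2 minus S1 in Mst1KO (6.67% of all genes) and 0 of 8 in WT (3.84%). At an unadjusted p under 0.05 that WT step had 3 members, beside 2143 of 13034 genes. Called for S3 minus S2 were 2 of 8 in Mst1KO (17.2%) and 3 of 8 in WT (23.6%). These shares are near those of all genes, and with 8 members they do not set the members apart. The stage changes were not called different between genotypes for any member, with 0 of 8 in both interactions, where 0.0153% of all genes were called for S2 minus S1 and 0.368% for S3 minus S2. No member had an unadjusted interaction p under 0.05, where 882 of 13034 genes did for S2 minus S1 and 1464 for S3 minus S2. The interactions of the members ran from -0.19 to 0.11 for S2 minus S1 and from -0.14 to 0.10 for S3 minus S2.

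**Figure D3:**
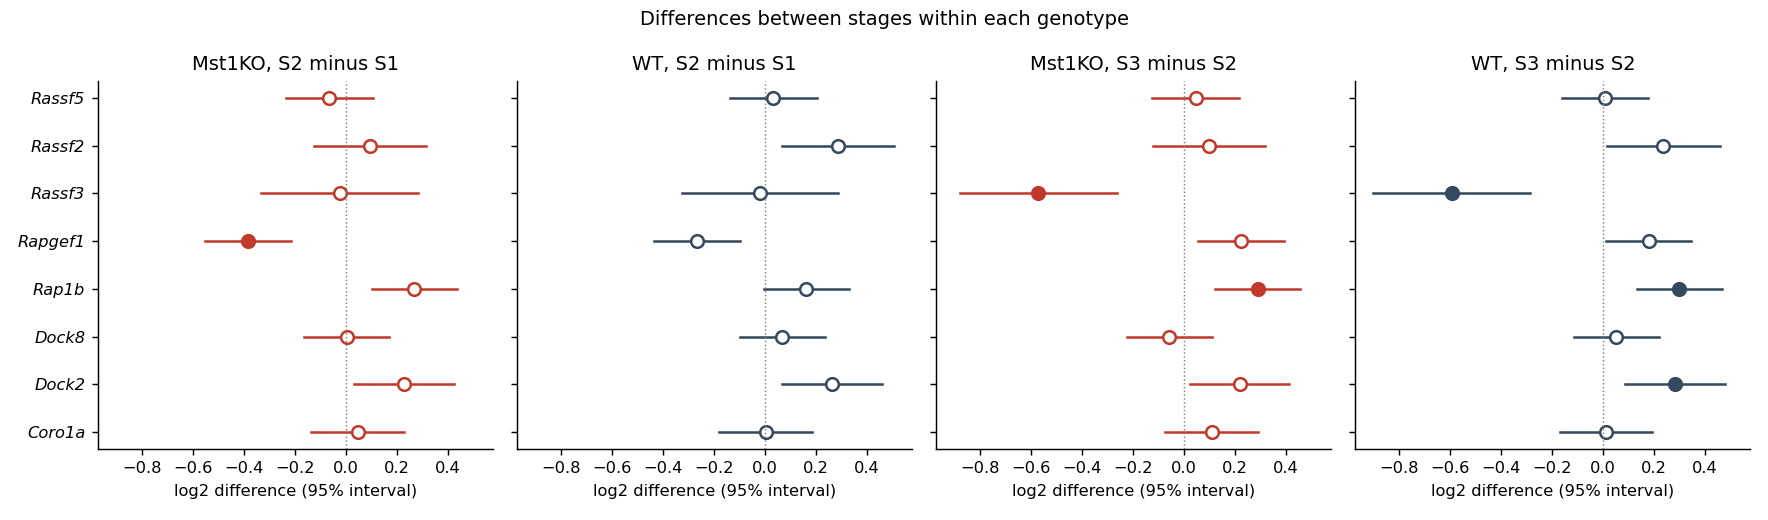
Differences between stages within each genotype for the 8 members (log2 difference on the x axis), with filled points for called differences and bars for the 95% interval. Filled points are Rapgef1 for S2 minus S1 in Mst1KO, Rassf3 and Rap1b for S3 minus S2 in Mst1KO, and Rassf3, Rap1b and Dock2 for S3 minus S2 in WT.

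For each member called between stages, the 2 genes with the most similar profile were found. Distance was the root mean square difference of the 6 group means, each gene centred on its own mean. Nearest to Dock2 were D16Ertd472e (0.0155) and Vps28, an ESCRT subunit (0.0305), where the median distance over all genes was 0.258. D16Ertd472e had 9.27 ± 0.03, 9.51 ± 0.13 and 9.69 ± 0.02 at S1, S2 and S3 in Mst1KO, against 9.06 ± 0.16, 9.34 ± 0.16 and 9.62 ± 0.07 in WT. Nearest to Rap1b were Relb, an NF-kappaB subunit (0.0278), and the kinase gene Mapkapk2 (0.0279), with a median of 0.249. Nearest to Rassf3 were P3h4 (0.0523) and the lipid kinase gene Pik3c2b (0.0533), with a median of 0.318. Nearest to Rapgef1 were Rufy2 (0.037) and Pwwp2a (0.0412), with a median of 0.204. The likeness rests on 6 points that share arrays.

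Around the members, 99 of 114 genes of 8 pathway lists were measured. The lists were chosen with earlier results of these data known, so the shares below describe them and are no test of the pathway. They also hold Stk4, the deleted gene, which is among those called for the average over stages. Between Mst1KO and WT, 2 were called at S1 (2.02%, beside 0.33% of all genes), 2 at S2 (2.02%, beside 1.17%), 8 at S3 (5 higher, 3 lower; 8.08%, beside 3.4%) and 7 for the average over stages (7.07%, beside 2.17%). With only the groups compared in the fit, the calls between genotypes at single stages were lost except those of Itga4 and Coro2b at S3. For S3 minus S2, 25 were called in Mst1KO (20 higher, 5 lower; 25.3%) and 28 in WT (22 higher, 6 lower; 28.3%), and for S2 minus S1 8 in Mst1KO (8.08%, beside 6.67% of all genes) and 11 in WT (11.1%, beside 3.84%). Over all genes the S3 minus S2 shares were the 17.2% in Mst1KO and 23.6% in WT given above. Of all genes called for that step, 1044 were higher and 1196 lower in Mst1KO, and 1356 higher and 1717 lower in WT.

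In the MST and NDR kinase module (9 of 10 measured) the average over stages held 3 calls: Stk4 fell by 0.34 in Mst1KO (SE 0.06, adjusted p = 0.0297), while the NDR1 kinase gene Stk38 rose by 0.35 ± 0.07 and the LATS kinase gene Lats2 by 0.31 ± 0.06. All 3 calls were lost in each of the 6 fits without 1 replicate of a genotype and with the replicate block, and those of Stk38 and Lats2 also with no filter and with quantile normalization repeated. At S3 Stk38 was 8.81 ± 0.11 in Mst1KO and 8.26 ± 0.18 in WT, a rise of 0.55 ± 0.12 (adjusted p = 0.0145) that was lost in 3 of 6 fits without 1 array. The scaffold gene Sav1 rose from S2 to S3 by 0.63 ± 0.17 in Mst1KO and 0.62 ± 0.17 in WT. Each of these calls was lost in 2 of 6 fits without 1 array (adjusted p up to 0.0897 in Mst1KO and 0.0651 in WT), and that in Mst1KO also with only the groups compared. Of the other RASSF genes 2 of 6 were measured, Rassf7 and Rassf8, with 0 calls in any comparison of genotypes or stages.

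Among regulators of RAP1 (16 of 20 measured), Rasgrp2, the RAP1 exchange factor CalDAG-GEFI, rose in Mst1KO at S1, with 8.83 ± 0.02 in Mst1KO and 8.11 ± 0.11 in WT (0.72 ± 0.11, adjusted p = 0.00943). Averaged over stages it rose by 0.46 ± 0.06 (adjusted p = 0.0117, lost in 1 of 6 fits without 1 replicate), and Rasa3, a GTPase-activating protein for RAP1 and RAS, by 0.45 ± 0.09 (adjusted p = 0.0479). The Rasa3 call was lost in 6 of 6 fits without 1 replicate, with the replicate block, with no filter and with quantile normalization repeated. Garnl3 rose in Mst1KO at S3 by 0.63 ± 0.15 (adjusted p = 0.0298), a call lost in 4 of 6 fits without 1 array. For S3 minus S2, 4 rose and 1 fell in Mst1KO, and 5 rose and 0 fell in WT. The WT call of Rasgrp2 for that step was lost in 4 of 6 fits without 1 array and in 4 of 7 other settings. Rising in both genotypes were the exchange factor gene Rapgef2 (0.49 ± 0.11 in Mst1KO and 0.56 ± 0.11 in WT), the GTPase-activating gene Sipa1 (0.33 ± 0.07 in Mst1KO and 0.38 ± 0.07 in WT) and Rasa2 (0.45 ± 0.12 in Mst1KO, lost in 1 of 6 fits without 1 array, and 0.53 ± 0.12 in WT).

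The effectors and integrin adaptors (18 of 18 measured) held 1 call at S2, where Arap3, a RAP-activated GTPase-activating protein, fell by 0.90 in Mst1KO (SE 0.15, adjusted p = 0.00855). At S3 they held 1 call, where the adaptor gene Fyb fell by 0.32 in Mst1KO (SE 0.08, adjusted p = 0.0357), lost in 6 of 6 fits without 1 array. From S2 to S3 Arap3 rose by 2.19 ± 0.15 in Mst1KO and 1.45 ± 0.15 in WT. The RAC exchange factor gene Tiam1 fell by 1.28 in Mst1KO (SE 0.15) and fell by 2.01 in WT (SE 0.15) over the same step. The RAP1 effector gene Apbb1ip, which recruits talin to integrins, rose in WT by 0.42 ± 0.10 (adjusted p = 0.00615), a call lost with only the groups compared.

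Of the integrin chains and ligands (10 of 10 measured), the LFA-1 chains Itgal and Itgb2 were not called between genotypes. Itgal was 11.03 ± 0.05, 11.17 ± 0.07 and 11.18 ± 0.01 at S1, S2 and S3 in Mst1KO, against 11.01 ± 0.03, 11.20 ± 0.06 and 11.16 ± 0.04 in WT. Itgb2 was 10.78 ± 0.02, 10.72 ± 0.05 and 11.07 ± 0.02 in Mst1KO, against 10.75 ± 0.09, 10.85 ± 0.07 and 11.04 ± 0.07 in WT. Itga4, the alpha chain of VLA-4, was the gene with the widest difference between genotypes in these lists: 9.55 ± 0.09, 9.09 ± 0.11 and 10.79 ± 0.08 at S1, S2 and S3 in Mst1KO, against 8.72 ± 0.30, 8.21 ± 0.12 and 8.87 ± 0.28 in WT. At S1, S2 and S3 it rose in Mst1KO by 0.83 ± 0.15, 0.88 ± 0.15 and 1.93 ± 0.15 (adjusted p = 0.0213, 0.00808 and 1.11e-06), the S1 call being lost in 5 of 6 fits without 1 array. Itgae, the alpha chain that binds E-cadherin with beta 7, fell by 0.75 in Mst1KO at S3 (SE 0.15, adjusted p = 0.00794), a call lost in 1 of 6 fits without 1 array (adjusted p = 0.0526). Itgb7, the beta 7 chain, was higher in Mst1KO by 0.50 ± 0.13, 0.48 ± 0.13 and 0.42 ± 0.13 at S1, S2 and S3, without overlap at any stage. None of these Itgb7 differences was called (adjusted p = 0.137, 0.0875 and 0.101). Itgb1, a beta chain that pairs with Itga4, rose from S2 to S3 by 1.52 ± 0.16 in Mst1KO and 1.02 ± 0.16 in WT. The LFA-1 ligand Icam1 rose over that step by 0.69 ± 0.14 in Mst1KO and 0.85 ± 0.14 in WT.

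Of the other DOCK and ELMO genes (11 of 15 measured), 3 rose and 0 fell from S2 to S3 in Mst1KO, and 5 rose and 0 fell in WT. The CDC42 exchange factor genes Dock9 (1.08 ± 0.12 in Mst1KO and 1.18 ± 0.12 in WT), Dock10 (0.47 ± 0.11 in Mst1KO and 0.64 ± 0.11 in WT) and Dock11 (0.66 ± 0.10 in Mst1KO and 0.65 ± 0.10 in WT) rose in both. These sit beside a Dock8 difference of -0.06 ± 0.08 in Mst1KO and 0.05 ± 0.08 in WT for the same step. Dock5, of the same subfamily as Dock2, rose already from S1 to S2, by 1.34 ± 0.17 in Mst1KO and 0.91 ± 0.17 in WT. Its WT rise from S2 to S3 was 0.53 ± 0.17. That call was lost in 5 of 6 fits without 1 array (adjusted p up to 0.148) and with no filter. Between genotypes only Elmo2 was called, with 8.87 ± 0.18 in Mst1KO S3 and 9.45 ± 0.15 in WT S3 (-0.58 ± 0.13, adjusted p = 0.02), lost in 3 of 6 fits without 1 array.

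The RAC, CDC42 and WASP module (18 of 18 measured) had 0 calls between genotypes. From S2 to S3 the WASP partner gene Wipf1 rose by 0.63 ± 0.09 in Mst1KO and 0.58 ± 0.09 in WT, and Cyfip2 of the WAVE complex by 0.49 ± 0.08 in Mst1KO and 0.32 ± 0.08 in WT, the WT call of Cyfip2 being lost with only the groups compared. Of the other coronins and ARP2/3 genes (15 of 18 measured), Coro2b and Coro7 rose in Mst1KO at S3, Coro2b with 6.60 ± 0.10 in Mst1KO and 5.23 ± 0.31 in WT (1.37 ± 0.24, adjusted p = 0.00366) and Coro7 with 8.89 ± 0.07 in Mst1KO and 8.36 ± 0.18 in WT (0.53 ± 0.11, adjusted p = 0.0103, lost in 1 of 6 fits without 1 array). From S2 to S3 Coro2a rose by 2.31 ± 0.22 in Mst1KO and 1.99 ± 0.22 in WT, while Coro2b fell by 1.61 in Mst1KO (SE 0.24) and fell by 2.16 in WT (SE 0.24).

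**Figure D4:**
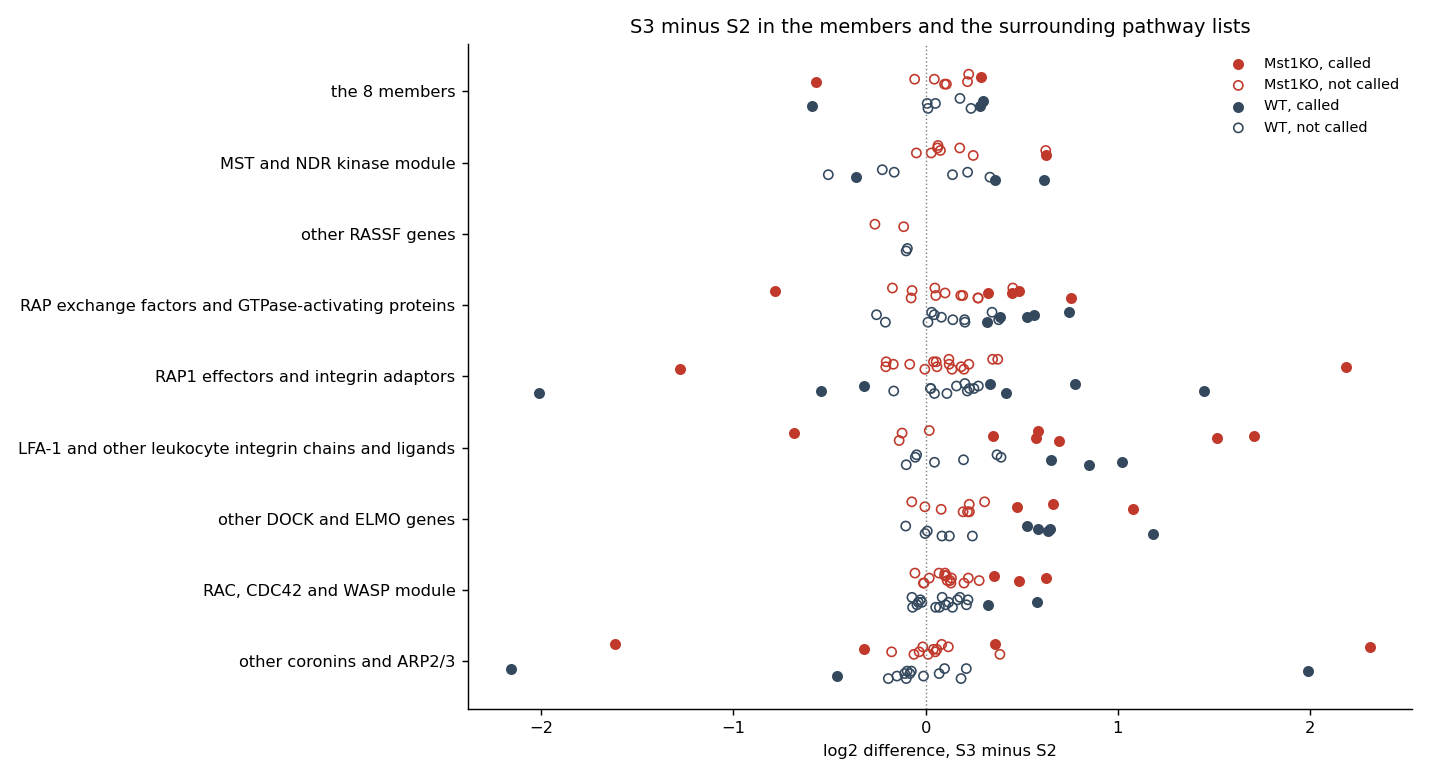
S3 minus S2 (log2 difference on the x axis) for each measured gene of the members and of the 8 pathway lists, with Mst1KO above WT in each row and filled points for called differences. Most filled points lie right of 0, as 20 of 25 do in Mst1KO and 22 of 28 in WT over the pathway lists, while the members stay between -0.59 and 0.30. Over all genes called, 1044 were higher and 1196 lower in Mst1KO, and 1356 higher and 1717 lower in WT.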

How the data were processed

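RNA of sorted thymic iNKT cells was hybridised to 18 arrays after NuGEN amplification, per the labels' protocols, which also name a CD8 microbead step before sorting. The deposited values are log2 expression; the submitters' processing notes name RMA and Affymetrix Expression Console 1.1. RMA normalizes between arrays and compresses changes of dim genes. Of 41345 probe sets, 23521 listed 1 symbol, 1814 several and 16010 none. Those with 1 symbol were kept when above their array's median on at least 3 of 18 arrays (13702), and the brightest stood for each gene (13034 genes). Gene symbols are those of the platform annotation.

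The limma package (3.58.1, R 4.3.3) fitted a mean for each of 6 groups and tested their differences. For the average over stages, values of a genotype and replicate number were averaged first. The steps were tested on simulated data. The members and lists were chosen with earlier results of these data known. Named are the 10 members, Stk4, up to 4 list genes of lowest p per comparison, and the 2 nearest profiles of each member called between stages. Marker genes were named for their role. Members' intervals have a confidence level of 95%. The number of arrays limits the precision. No array duplicated another (r within groups 0.976 to 0.986).

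Arrays were treated as unpaired by replicate number. Deviations from group means correlated from -0.05 to 0.21 between arrays of the same number, and not every pair exceeded 0.1. The values were 0.09, 0.14 and 0.21 between WT S2 and WT S1. Arrays of different numbers were not compared, so this check cannot exclude pairing. Alternatives were no filter, a 75th percentile filter, repeated quantile normalization, a variance trend with a robust fit, averaging all probe sets that represent a gene, only the groups compared, a replicate block, and leaving out each array. Leaving out all stages of 1 replicate number for the average was chosen after seeing the data, as was the GC box among the motifs. Python 3.11.15 was used with pandas 2.3.3, and the plots were drawn in matplotlib 3.10.9.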

Additional observations from a re-analysis of the deposited data

Results flagged for a closer look

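Outlying arrays were not screened for, since each group held 3 arrays. No member was singled out by the interactions. Among the pathway genes, the S3 minus S2 change differed between genotypes for 2 integrin chains, by the interaction term of the limma fit. For Itga4, the alpha chain of VLA-4, the change was 1.71 ± 0.15 in Mst1KO and 0.65 ± 0.15 in WT, a difference of 1.05 ± 0.21 (adjusted p = 0.0336). The call was lost in 10 of 12 fits without 1 array, with replicate number as a block and with only the groups compared. For Itgae the change was -0.68 ± 0.15 in Mst1KO and 0.39 ± 0.15 in WT, a difference of -1.08 ± 0.21 (adjusted p = 0.0272). That call was lost in 7 of 12 fits without 1 array and with only the groups compared.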

How the results depend on the processing

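Of 1128 member differences recomputed under the alternatives, 1104 kept their side of the threshold, 15 lost a call, 9 gained one and 0 called differences changed sign; 63 uncalled ones did. Between genotypes, Coro1a was called at S3 with the 75th percentile filter (1 member in place of 0) and with the variance trend and robust fit (1 in place of 0), and for the average over stages with the latter setting alone (1 in place of 0, adjusted p = 0.0109). For S2 minus S1 in WT the count was 1 in place of 0 with the 75th percentile filter (Rapgef1, adjusted p = 0.0349) and 1 with the trend and robust fit (Dock2, adjusted p = 0.043). For S2 minus S1 in Mst1KO both settings gave 2 in place of 1, adding Rap1b, and only the groups compared gave 0. For S3 minus S2 only the groups compared gave 1 in place of 2 in Mst1KO and 1 in place of 3 in WT, Rassf3 in both, while in Mst1KO the 75th percentile filter gave 3 (adding Rapgef1) and the trend and robust fit gave 3 (adding Dock2). Why these settings differ was not tested, beyond the fewer genes of a stricter filter and the fewer arrays of a smaller fit. Leaving out each array gave 1 to 2 members for S3 minus S2 in Mst1KO, 2 to 3 in WT, 1 to 1 for S2 minus S1 in Mst1KO and 0 to 0 in every other comparison of members. The fit with the replicate block ended the calls of Stk4, Stk38, Lats2 and Rasa3 for the average over stages and changed no member's call (0, 0, 0 and 0 between genotypes, 1 and 2 in Mst1KO and 0 and 3 in WT for the 2 stage steps, 0 in both interactions). It moved genes called over all genes by less than 1.5 times in each comparison.

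Genes called over all genes moved by more than 1.5 times as follows. At S1 between genotypes the 43 became 28 with no filter, 93 with the 75th percentile filter, 128 with trend and robust fit, 5 with only the groups compared and 9 to 23 without 1 array. At S2 the 152 became 248 with trend and robust fit, 4 with only the groups compared and 39 to 160 without 1 array. At S3 the 443 became 184 with only the groups compared and 200 to 369 without 1 array. The average's 283 became 551 with trend and robust fit and 64 to 180 without 1 replicate. For S2 minus S1, the 870 in Mst1KO became 530 to 704 without 1 array, and the 501 in WT became 195 with only the groups compared and 295 to 494 without 1 array. For S3 minus S2 in WT the 3073 became 2037 with only the groups compared. The interaction for S2 minus S1 gave 2 genes, and 2 to 6 without 1 array, and that for S3 minus S2 gave 48, against 15 with only the groups compared and 25 to 93 without 1 array. Repeating the quantile normalization moved the median of all genes by at most 0.05 (log2).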

Other observations

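The probe sets that list Rassf1 and Rap1a together with another symbol were not assigned to a member and were not tested. The probe set of Rap1a and Gm9392 had 9.93 ± 0.07, 10.07 ± 0.08 and 9.85 ± 0.05 at S1, S2 and S3 in Mst1KO, against 10.19 ± 0.09, 10.12 ± 0.09 and 9.79 ± 0.02 in WT (SD, n = 3). At S1 its Mst1KO arrays lay below its WT arrays, and at S3 it was lower than at S2 in both genotypes, where the used Rap1b probe set was higher. The probe set of Rassf1 and Gm9917 had 6.56 ± 0.22, 6.51 ± 0.12 and 6.85 ± 0.18 in Mst1KO, against 6.10 ± 0.41, 6.24 ± 0.14 and 6.65 ± 0.05 in WT. Its Mst1KO arrays lay above its WT arrays at S2 and S3 and overlapped them at S1. Which of the listed genes these signals come from cannot be told apart.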
